A study of Homo sapiens with 4 samples.

Results

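The genes described here are 47 heat shock proteins, chaperonins and their partners of the cytosol, the mitochondria and the endoplasmic reticulum (ER), followed in human embryonic stem cells with and without SLC35F2. They were taken by symbol from a list of these gene families, drawn up with earlier results of the same data known, and all 47 had enough reads to be tested among 19027 tested genes, out of 60483 gene identifiers counted. The cells were of the H9 (WA09) line, a long-established line of human embryonic stem cells. Total RNA was the starting material and messenger RNA was sequenced in 2 control libraries and 2 libraries of cells labelled as SLC35F2 knock-out (KO). The SLC35F2 protein belongs to the solute carriers, which move small molecules across membranes. No treatment is named in the labels, and they give neither the way the knock-out was made nor whether each library stands for a culture or clone of its own. The p-values therefore rest only on how far these samples lie apart, which may reflect technical variation.

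Chaperones hold unfolded proteins and let them fold or refold. HSP70 proteins bind short exposed stretches with the help of J-domain partners and nucleotide exchange factors, HSP90 finishes the folding of kinases and receptors with its co-chaperones, and the TRiC chaperonin folds actin and tubulin inside a ring of related subunits. Pluripotent stem cells are known for high levels of many of these genes. The cytosolic genes are controlled in part by HSF1, which binds inverted GAA repeats called heat shock elements, and the ER genes by the unfolded protein response, in which ATF6 binds the ER stress element (ERSE).

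Of these elements, the ERSE was found in members of the ER alone, and the heat shock element mostly in cytosolic members, which are the largest group. The search used RefSeq windows on GRCh38.p14 that run from 250 bases before to 50 bases after an annotated start, and 42 of the 47 genes had such a window. A heat shock element of 3 units, which is GAANNTTC with a further GAA after NN or a further TTC and NN in front, searched on both strands like the other motifs, stood in a window of 6 members, namely HSPA8, DNAJA1, DNAJB6, HSP90AA1, HSP90AB1 and HSPD1. That is 14.3% of the members, against 166 of all 27305 genes with a window (0.608%, and 0.49% of the 35116 windows). By compartment it stood in 5 of 27 cytosolic genes with a window (18.5%), 1 of 5 mitochondrial genes (20%) and 0 of 9 ER genes. The shorter form of 2 units, GAANNTTC, which each longer match also contains, stood in 12 members (28.6%, against 8.21% of all genes), of which 10 are cytosolic, HSPD1 is mitochondrial and CANX is an ER gene. The ERSE, CCAAT and CCACG with 9 bases between them, stood in 5 members and 25 of all genes (0.0916%), and all 5 were ER genes: HSPA5, HSP90B1, CALR, CANX and PDIA6. ERSE-II, ATTGG and CCACG with 1 base between them, stood in the window of the ER gene HYOU1 and in 19 of all genes (0.0696%). A match is a description of the sequence and not a measured binding site.

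Shown here, 5′ to 3′ on the strand of the gene, are matches in the genes around which the results below are arranged, with the matched element in capitals. HSPA8 lies at chr11:123062171-123062200 on the minus strand, DNAJA1 at chr9:33025266-33025293 on the plus strand, HSP90AA1 at chr14:102087112-102087141 on the minus strand and HSP90AB1 at chr6:44247763-44247858 on the plus strand. DNAJB1, at chr19:14518422-14518492 on the minus strand, holds the shorter form in 2 places.
HSPA8: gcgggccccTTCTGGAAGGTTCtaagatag
DNAJA1: gcgccgggcgGAACTTTCCAGAAcgctc
HSP90AA1: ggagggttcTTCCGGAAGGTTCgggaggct
HSP90AB1: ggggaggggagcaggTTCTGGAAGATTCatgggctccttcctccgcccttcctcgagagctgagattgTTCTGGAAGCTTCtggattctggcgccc
DNAJB1: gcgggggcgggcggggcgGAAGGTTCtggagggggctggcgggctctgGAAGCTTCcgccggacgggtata
The ER genes are shown with their ERSE, or for HYOU1 its 2 copies of ERSE-II, in capitals. HSPA5 lies at chr9:125241344-125241428 and HYOU1 at chr11:119057265-119057400, both on the minus strand. The HSP90B1 stretches lie at chr12:103930211-103930240 and chr12:103930316-103930345 and the CALR stretch at chr19:12938369-12938419, all on the plus strand.
HSPA5: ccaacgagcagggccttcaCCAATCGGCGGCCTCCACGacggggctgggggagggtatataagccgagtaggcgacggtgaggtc
HSP90B1, distal: cctgaCCAATCGGAAGGAGCCACGcttcgg
HSP90B1, proximal: gggtgCGTGGTGCGGCGCGATTGGtgggtt
HYOU1: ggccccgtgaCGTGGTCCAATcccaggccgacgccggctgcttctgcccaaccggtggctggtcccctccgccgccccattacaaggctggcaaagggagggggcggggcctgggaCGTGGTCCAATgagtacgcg
CALR: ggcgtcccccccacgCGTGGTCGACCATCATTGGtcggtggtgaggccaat

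Assigned reads ranged from 27824693 to 37978705 per library, and the 47 members took 2.08% to 2.34% of them. Levels are given in CPM, reads relative to the TMM-scaled total of the library, and, where genes are set against each other, in RPKM, the same value per kilobase of exon. SLC35F2 itself was counted at 41.1 and 27.1 CPM in control libraries and at 12.1 and 9.65 CPM in KO libraries. Each library thus stood on the side of its label, with RNA of the gene still present in both KO libraries. The log2 fold change of SLC35F2 was -1.65 ± 0.35 (SE), with an edgeR adjusted p of 0.58, so the targeted gene itself was not called. Reads given to no gene made up 20.3% of counted alignments in control 2, the highest share, and 14.4% in KO 2, the lowest. The 10 stem cell markers were present in all libraries, with a sum of 6397 to 7252 CPM in 3 of them and 4846 CPM in KO 2. The 8 fibroblast markers summed to 616 and 1108 CPM without the knock-out and 621 and 1286 CPM with it. Among them DCN and LUM had at most 4 reads in a library, and COL3A1 and POSTN at most 3.66 CPM. COL1A1 (46.8 to 552 CPM), COL1A2 (93.6 to 221 CPM), TAGLN (49.4 to 232 CPM) and THY1 (296 to 429 CPM) made up nearly all of the sum. The 12 markers of differentiated lineages summed to 3.57 to 11.4 CPM. In such bulk samples a smaller number of cells of a type and less RNA per cell cannot be told apart.

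No chaperone rose or fell in the KO cells in the test across all genes. In edgeR's quasi-likelihood test 0 of 47 members passed an adjusted p of 0.05, and 5 of all genes tested did (0.0263%). The smallest adjusted p of a member was 0.997 in edgeR. At an unadjusted p under 0.05 there were 2 members, HSPA8 and DNAJB1, both higher in KO, against 4.06% of all genes tested. DESeq2, limma-voom, quantile normalisation with limma-trend and edgeR's legacy fit called 0 members as well. Of the 47 members, 8 had both KO values above both control values (17%, against 15.8% of all genes tested) and 3 had both below (6.38%, against 16.3%), while 36 overlapped between the groups. Among all genes that averaged 100 CPM or more, 26% were higher and 6.6% lower. The 32 members at that level had 15.6% higher and 6.25% lower. With library size as the only scaling, 8 of the 47 members were higher and 9 lower, where 10.2% of all genes were higher and 21.3% lower. The 95% confidence intervals of 45 members included 0, and their limits ran from -1.15 to 1.68 on the log2 scale. Moderate differences of single genes were thus not detectable with 2 libraries per group, and SLC35F2 itself was not called.

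**Figure D1:**
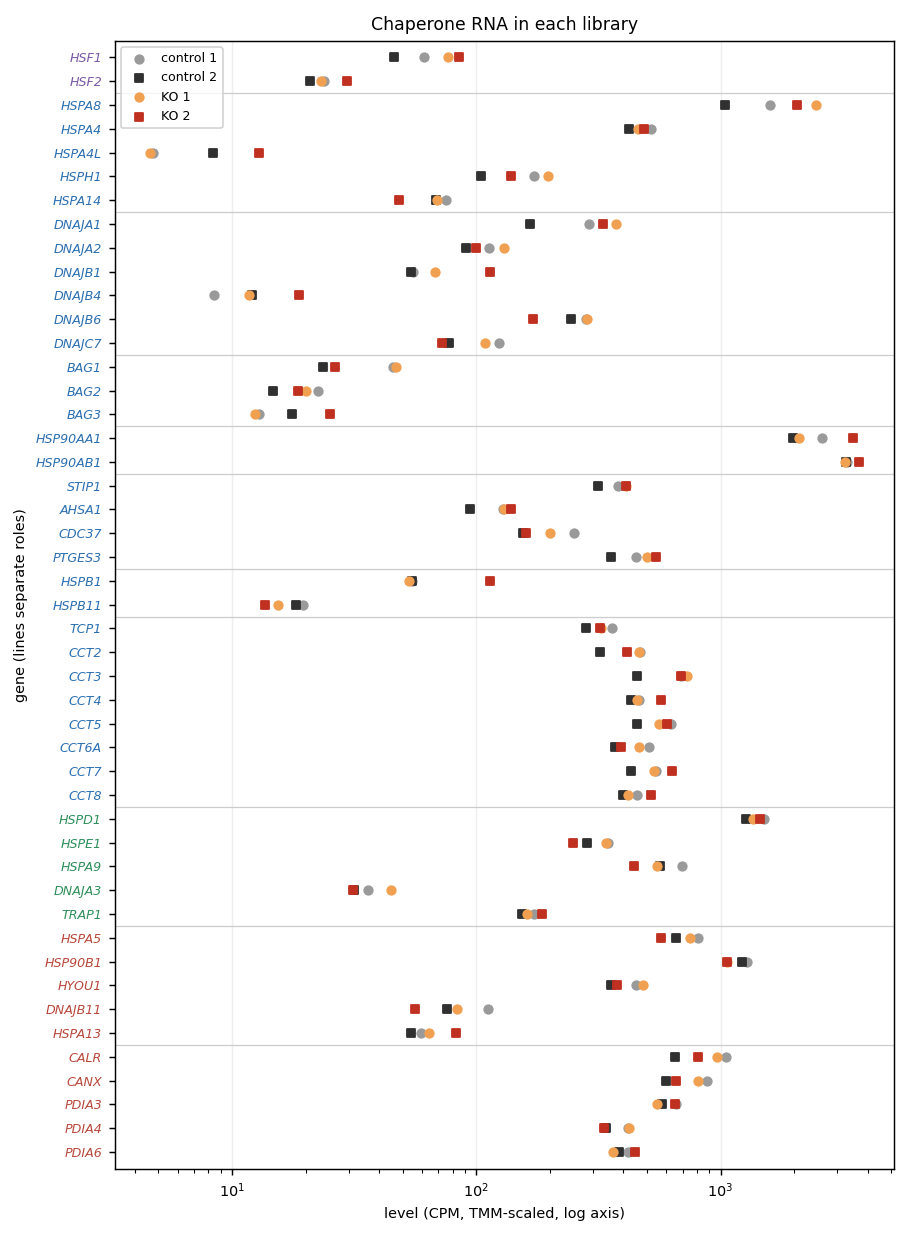
Level of each of the 47 genes in the 4 libraries, in CPM on a log axis, grouped by role and with gene names coloured by compartment (purple nucleus and cytosol, blue cytosol, green mitochondria, red ER). Grey and black symbols are control 1 and 2, orange and red are KO 1 and 2; HSPA8 has both KO symbols to the right of both controls (2460.1 and 2051 against 1589 and 1038 CPM), and control 2 is the lowest library for 29 of the genes.

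The most abundant members per length were the cytosolic HSP90 and HSP70 genes. HSP90AB1, the constitutive form of HSP90, had a mean level of 1131 RPKM over the 4 libraries, HSP90AA1, the stress-inducible form, 483 RPKM, and HSPA8, the constitutive HSP70 known as HSC70, 368 RPKM. Next came the mitochondrial chaperonin gene HSPD1 (HSP60) with 329 RPKM, the ER lectin gene CALR with 321 RPKM and the ER HSP90 gene HSP90B1 (GRP94) with 247 RPKM. HSPA4L, an HSP110 relative, had the lowest level with 0.658 RPKM, and the median member stood at 68.4 RPKM.

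The heat shock factors themselves were detected at low levels. HSF1, the main factor of the heat shock response, reached 61.0 and 45.9 CPM without the knock-out and 76.3 and 85.1 CPM with it. Both KO libraries were thus above both controls, with group means of 53.4 ± 10.7 and 80.7 ± 6.23 CPM (SD, n = 2 per group). The log2 fold change was 0.60 ± 0.28 (SE), which did not pass in edgeR (adjusted p = 0.997). HSF2, a related factor of development, had control levels of 23.7 and 20.8 CPM and KO levels of 23.2 and 29.6 CPM, and its groups overlapped.

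Among the cytosolic HSP70 and HSP110 genes, HSPA8 showed the highest fold change of all members. HSPA8 (chromosome 11, 123057489 to 123063230, minus strand of GRCh38, protein coding) had levels of 1589 CPM (control 1), 1038 CPM (control 2), 2460.1 CPM (KO 1) and 2051 CPM (KO 2). The groups did not overlap, and the means of 1314 ± 390.1 CPM in control and 2255 ± 289 CPM in KO (SD, n = 2 per group) differed 1.72-fold. On the log2 scale the difference was 0.78 ± 0.29 (SE), with a 95% confidence interval from 0.13 to 1.43 and an edgeR adjusted p of 0.997. Without control 2, the library with the lowest level, the log2 fold change was 0.50, and without control 1 it was 1.13. GENCODE 29 names 17 pseudogenes of HSPA8, so reads that match several places, which were left out of the counts, may be part of its true level. The HSP110 genes, which act as nucleotide exchange factors of HSP70, overlapped between the groups: HSPA4 was counted at 521 and 422 CPM in control libraries and at 461 and 486 CPM in KO libraries, and HSPH1 had 173 and 104 CPM against 196 and 138 CPM. HSPA4L was high in KO 2 (12.8 CPM) and control 2 (8.36 CPM) and low in KO 1 (4.62 CPM) and control 1 (4.77 CPM), so its libraries paired by number and not by group. HSPA14, a ribosome-associated HSP70, reached 74.8 and 68.2 CPM without the knock-out and 69.1 and 48.2 CPM with it, and 17.4% of its exonic bases lie in a further gene model on the same strand.

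The J-domain partners differed among themselves. DNAJA1 (chromosome 9, 33025211 to 33039907, plus strand), the main class A partner of cytosolic HSP70, had control levels of 291 and 165 CPM and KO levels of 374 and 329.6 CPM. As with HSPA8, the order from low to high was control 2, control 1, KO 2 and KO 1. Its log2 fold change was 0.63 ± 0.32 (SE, 95% confidence interval -0.09 to 1.34, edgeR adjusted p = 0.997), and it was 0.27 without control 2 and 1.10 without control 1. DNAJB1 (chromosome 19, 14514770 to 14529770, minus strand), the class B partner also known as HSP40 and a textbook heat shock gene, had control levels of 55.1 and 54.3 CPM, beside 67.9 CPM in KO 1 and 113 CPM in KO 2. Its controls were close together and its KO libraries were not, with a log2 fold change of 0.73 ± 0.31 (SE, interval 0.02 to 1.44, edgeR adjusted p = 0.997). The log2 fold change of DNAJB1 was 1.06 without KO 1 and 0.31 without KO 2. The fit without KO 1 takes the spread of the lone KO library from the controls, so its calls are not given. DNAJB4 was counted at 8.40 and 12.1 CPM in control libraries and at 11.7 and 18.9 CPM in KO libraries. DNAJA2 (90.6 to 129.8 CPM), DNAJC7 (72.4 to 123 CPM) and DNAJB6 overlapped between the groups, and DNAJB6 was lowest in KO 2, with 170.0 CPM against 243 to 285 CPM elsewhere.

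The BAG genes, whose proteins release HSP70 from its substrates, showed no difference that followed the groups. BAG1 had 45.7 CPM in control 1 and 46.7 CPM in KO 1 but 23.5 CPM in control 2 and 26.3 CPM in KO 2. BAG3, the stress-induced member that links HSP70 to autophagy, had the reverse order, with 12.9 CPM in control 1 and 12.4 CPM in KO 1 against 17.5 CPM in control 2 and 25.1 CPM in KO 2. The log2 fold change of BAG3 was 0.31 ± 0.41 (SE, edgeR adjusted p = 0.997) and turned to -0.29 without KO 2. BAG2 lay between 14.7 and 22.4 CPM in the 4 libraries, and 44.2% of its exonic bases are also covered by genes of the opposite strand, RAB23 among them.

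The HSP90 genes of the cytosol showed no difference that passed the test, and HSP90AA1 spread more widely between libraries than HSP90AB1. HSP90AB1 had control levels of 3292 and 3275 CPM and KO levels of 3232 and 3686 CPM, a log2 fold change of 0.07 ± 0.24 (SE, interval -0.47 to 0.62, edgeR adjusted p = 0.997). HSP90AA1 had control levels of 2594 and 1971 CPM, beside 2100.3 CPM in KO 1 and 3469 CPM in KO 2, so that KO 2 was above both controls and KO 1 lay between them. Its log2 fold change was 0.29 ± 0.31 (SE, edgeR adjusted p = 0.997), and it was 0.62 without KO 1 and -0.12 without KO 2. Per length, the ratio of the inducible to the constitutive form was 0.447 and 0.342 in control and 0.369 and 0.534 in KO.

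Of the 4 HSP90 co-chaperones, 3 had both KO values above both control values, by small amounts and with no call. The same held for 15.8% of all genes and for 26% of genes that averaged 100 CPM or more, as these 4 did. With upper-quartile factors or quantile normalisation the groups of AHSA1 overlapped, which leaves 2 of 4. All 4 had their lowest value in control 2. PTGES3, the p23 protein that holds the closed HSP90 dimer, was counted at 450.2 and 357 CPM in control libraries and at 502 and 545 CPM in KO libraries (log2 fold change 0.38 ± 0.26, SE, edgeR adjusted p = 0.997). STIP1, the HOP adaptor that passes clients from HSP70 to HSP90, had 381 and 314 CPM against 409 and 410.5 CPM. AHSA1, which activates the ATPase of HSP90, had 128 and 94.4 CPM against 130.3 and 139 CPM, so control 1 and KO 1 were nearly equal. The log2 fold change of AHSA1 was 0.27, and 0.07 to 0.52 over all alternatives. CDC37, which brings kinases to HSP90, had 252 CPM in control 1 and 156 to 199.7 CPM in the other libraries.

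The genes named for small heat shock proteins differed from each other. HSPB1 (HSP27), a stress-induced holdase, had 54.4 CPM in both controls, beside KO levels of 53.0 CPM (KO 1) and 113 CPM (KO 2). The log2 fold change of 0.61 ± 0.37 (SE, edgeR adjusted p = 0.997) rested on KO 2: without that library it was -0.036, and without KO 1 it was 1.07. HSPB11, which is also known as the intraflagellar transport protein IFT25, reached 19.6 and 18.4 CPM without the knock-out and 15.5 and 13.6 CPM with it. The KO libraries of HSPB11 were both below the controls, with a log2 fold change of -0.39 ± 0.33 (SE) that was not called.

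**Figure D2:**
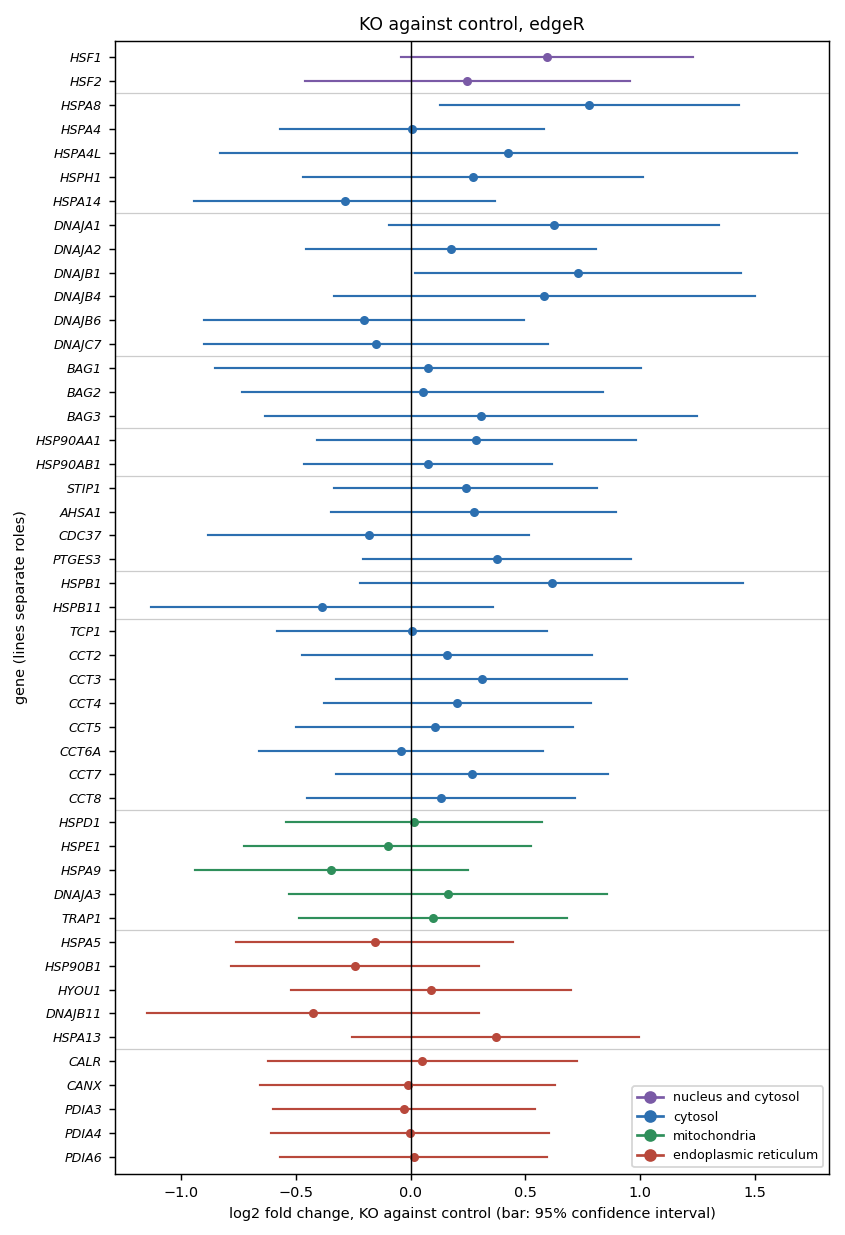
Log2 fold change of each gene, KO against control, with its 95% confidence interval from edgeR, coloured by compartment and grouped by role. The intervals of HSPA8 (0.13 to 1.43) and DNAJB1 (0.02 to 1.44) lie above 0, and the other 45 include it.

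The log2 fold changes of the 8 subunits of the TRiC ring lay in a narrow range, and each subunit overlapped between the groups. CCT4 had the highest level per length, with control levels of 463 and 429 CPM and KO levels of 455 and 572 CPM (log2 fold change 0.20 ± 0.26, SE, edgeR adjusted p = 0.997). CCT3 had the highest fold change of the ring, with control levels of 689 and 457 CPM and KO levels of 732 and 689 CPM (0.31 ± 0.28, SE, edgeR adjusted p = 0.997), and it was 0.043 without control 2 and 0.65 without control 1. The log2 fold changes of the subunits ran from -0.04 for CCT6A to 0.31 for CCT3, with a median of 0.15, and their 95% limits from -0.66 to 0.94. Between them, CCT2, CCT5, CCT6A, CCT7, CCT8 and TCP1 ran from 282 CPM (TCP1 in control 2) to 635 CPM (CCT7 in KO 2), and 30.1% of the exonic bases of CCT5 are also covered from the opposite strand. All 8 subunits had their lowest value in control 2. In RPKM the highest subunit exceeded the lowest 2.35-fold in control 1, 2.65-fold in control 2, 2.78-fold in KO 1 and 3.09-fold in KO 2. TCP1, which encodes subunit alpha, was the lowest in each library, at 0.489 to 0.566 of the mean of the ring. CCT4 stood at 1.26 to 1.51 of that mean and CCT3 at 1.13 to 1.45. In RPKM the highest subunit was CCT3 in control 1 and KO 1 and CCT4 in control 2 and KO 2. In CPM it was CCT3 in each library, so the order depends on the exon lengths used. Genes of the opposite strand also cover 12.6% of the exonic bases of CCT4. The assembled protein ring holds its subunits in equal numbers.

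The mitochondrial chaperones showed no difference that passed the test, and HSPA9 alone among them did not overlap between the groups. HSPA9 (mortalin), the HSP70 that pulls proteins into the matrix (chromosome 5, 138553756 to 138575724, minus strand), had control levels of 698 and 566 CPM and KO levels of 550.1 and 444 CPM. Both KO libraries were below both controls, KO 1 only slightly below control 2, with a log2 fold change of -0.35 ± 0.26 (SE, interval -0.94 to 0.25, edgeR adjusted p = 0.997). HSPD1 was counted at 1512 and 1265 CPM in control libraries and at 1361 and 1446 CPM in KO libraries, a log2 fold change of 0.02 ± 0.25 (SE, interval -0.54 to 0.57, edgeR adjusted p = 0.997). HSPE1, the co-chaperonin HSP10 that caps HSPD1, starts head to head with it on chromosome 2 and had 346 and 285 CPM against 339 and 249.8 CPM. The ratio of HSPD1 to HSPE1 in RPKM was 2.03 and 2.07 in control, 1.87 in KO 1 and 2.70 in KO 2. HSPE1 has 26 named pseudogenes and HSPD1 has 17, so this ratio depends on the reads left out as not unique. DNAJA3, the J-domain partner of HSPA9, had 31.2 to 44.6 CPM and TRAP1, the mitochondrial HSP90, 153 to 187 CPM, with overlapping groups. DNASE1, a gene of the opposite strand, covers 29.3% of the exonic bases of TRAP1.

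The ER chaperones, the targets of the unfolded protein response, showed no difference that passed the test, which does not show equal levels. HSPA5 (BiP), the HSP70 of the ER and the standard readout of that response, reached 808 and 659.6 CPM without the knock-out and 746 and 571 CPM with it, with a log2 fold change of -0.16 and an interval from -0.76 to 0.45. HSP90B1 (chromosome 12, 103930107 to 103953645, plus strand) had control levels of 1286 and 1225 CPM and KO levels of 1060.2 and 1062 CPM. Its replicates were close in both groups and the groups did not overlap, with means of 1255 ± 43.2 and 1061 ± 1.10 CPM (SD, n = 2 per group) and a log2 fold change of -0.24 ± 0.24 (SE, edgeR adjusted p = 0.997). DNAJB11, the J-domain partner of BiP, had the lowest log2 fold change of all members, -0.43 (interval -1.15 to 0.30), with control levels of 112 and 76.0 CPM and KO levels of 83.6 and 56.2 CPM. HYOU1, the exchange factor of BiP, had 451 and 357 CPM against 480.3 and 378 CPM. HSPA13, a microsomal HSP70 relative, was the ER gene that stood higher in both KO libraries, with 59.2 and 54.1 CPM against 64.1 and 82.3 CPM (log2 fold change 0.37 ± 0.28, SE, edgeR adjusted p = 0.997).

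The lectins and disulfide isomerases of the ER had log2 fold changes close to 0. The 5 log2 fold changes ran from -0.03 for PDIA3 to 0.05 for CALR, and each gene overlapped between the groups. CALR, which retains glycoproteins until they are folded, was counted at 1057 and 652 CPM in control libraries and at 964 and 807 CPM in KO libraries, so the controls lay further apart than the group means of 854 ± 286 and 886 ± 111 CPM (SD, n = 2 per group). CANX, its membrane-bound relative, had 883 and 598 CPM against 810.2 and 659 CPM. The isomerase genes PDIA3, PDIA4 and PDIA6 had 334 to 654 CPM, and 25.2% of the exonic bases of PDIA6 are also covered by ATP6V1C2, a gene of the opposite strand.

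Summed by compartment, the cytosolic chaperones with HSPA8 among them stood slightly higher in both KO libraries and the other compartments overlapped. The 30 cytosolic genes summed to 14598 and 11721 CPM without the knock-out and 14839 and 16291 CPM with it, 1.18-fold on the means. KO 1 exceeded control 1 by less than the controls differed, and by less than HSPA8 alone did (2460.1 CPM in KO 1, 1589 CPM in control 1). Without HSPA8 the cytosolic sum is therefore lower in KO 1 than in control 1. The exact two-sided permutation test gave p = 0.333, which is the smallest p that 2 against 2 libraries allow. With quantile normalisation the log2 ratio of this sum moved from 0.24 to 0.062. The 5 mitochondrial genes summed to 2764 and 2300.1 CPM without the knock-out and 2456 and 2358 CPM with it. The 10 ER genes summed to 6147 and 4916 CPM against 5543 and 5049 CPM, and the exact permutation p was 1 for both compartments. TRiC alone summed to 4113 and 3142 CPM against 3949.8 and 4145 CPM (exact permutation p = 0.667).

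**Figure D3:**
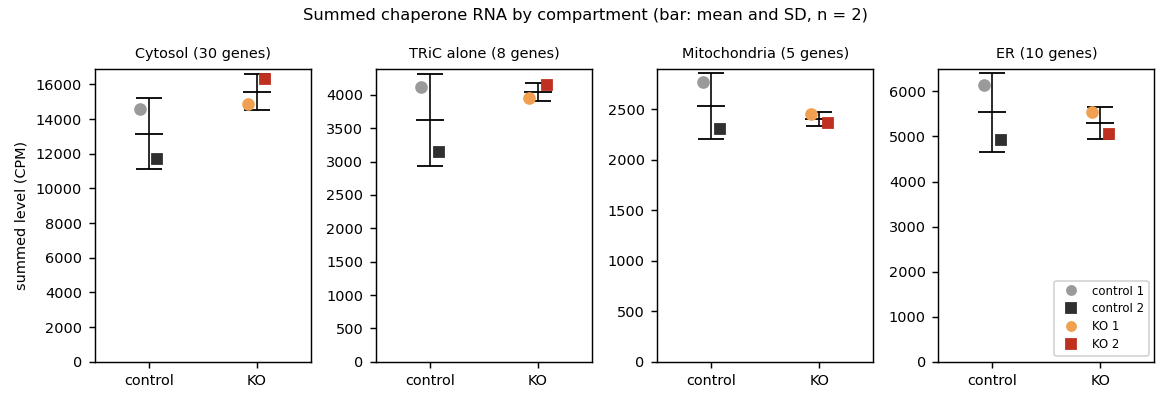
Summed level in CPM of the cytosolic genes, the TRiC subunits alone, the mitochondrial genes and the ER genes in each library, with the group mean and SD (n = 2). The cytosolic sum is 14839 and 16291 CPM in KO against 14598 and 11721 CPM in control, and in each panel control 2 is the lowest library.

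Ratios within a library do not depend on the scaling of the libraries. The ER sum divided by the cytosolic sum was 0.421 and 0.419 in the controls, 0.374 in KO 1 and 0.31 in KO 2. The controls were nearly equal and both KO libraries were lower, with an exact permutation p of 0.333, the smallest possible. The cytosolic sum includes HSPA8, which was higher in both KO libraries, and its part in this ratio was not tested. In RPKM the ratio of HSPA8 to HSPA5, the HSP70 genes of cytosol and ER, was 1.58 and 1.27 in control and 2.66 and 2.89 in KO, and the ratio of HSPA8 to the mitochondrial HSPA9 was 3.88 and 3.12 against 7.61 and 7.86. Both ratios separated the groups. They share HSPA8, which alone was higher in both KO libraries, and HSPA9 alone was lower in both. The ratio of HSPA8 to HSPA9 thus had to separate, and neither ratio is independent of the HSPA8 values. These pairs were chosen after the levels of single genes were known, so they describe these libraries. By promoter element, the 6 members with a heat shock element of 3 units had a median log2 fold change of 0.18, beside 0.029 for all genes and 0.14 for genes that averaged 100 CPM or more. HSPA8 and DNAJA1, 2 of the 6, were higher in both KO libraries (33.3%, against 15.8% of all genes and 26% of the abundant ones), and DNAJB6 was at -0.20. The 6 members with an ERSE or ERSE-II had a median of 0.00038 and a range from -0.24 for HSP90B1 to 0.09 for HYOU1.

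In most members libraries of the same group differed by more than the groups did. This held for 40 of the 47 members, in which the controls or the KO libraries differed from each other by more than the fitted difference between KO and control (85.1%, against 73% of all genes tested). Control 2 was below control 1 for 44 members, with a median log2 difference of -0.30, and held the lowest value of 29 members (61.7%, against 26.5% of all genes tested) and the highest of 0 (against 25.8%). Abundant genes as a class leaned the same way: among the 1999 genes that averaged 100 CPM or more, control 2 was lowest in 53.5% and highest in 9.2%. In both KO libraries 26% of these genes were higher and 6.6% lower. Of the 32 members at that level, 15.6% were higher and 6.25% lower in both KO libraries. Control 2 was also the library with the highest share of reads given to no gene, whose part in these values was not tested.

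The KO libraries also differed from each other. KO 2 exceeded KO 1 by more than 1.5-fold in 6 members, namely HSPA4L (2.78-fold), HSPB1 (2.14-fold), BAG3 (2.02-fold), DNAJB1 (1.67-fold), HSP90AA1 (1.65-fold) and DNAJB4 (1.61-fold). All 6 are cytosolic, as are 30 of the 47 members. KO 1 exceeded KO 2 by as much in BAG1 and DNAJB6. The controls differed by as much in 9 members with control 1 higher and in 1 member with control 2 higher. The share of all genes tested that differed by as much was not counted. The sum of the stem cell markers was lowest in KO 2, where 7 of the 10 genes had their lowest value and SOX2 had its highest. The sum of the fibroblast markers was highest in KO 2, where 3 of the 8 genes, COL1A1, COL1A2 and COL3A1, had their highest value, while TAGLN was highest in control 2 and THY1 in KO 1. The part of these differences in the chaperone levels was not tested. HSPA4L, BAG3 and DNAJB4 were also higher in control 2 than in control 1.

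**Figure D4:**
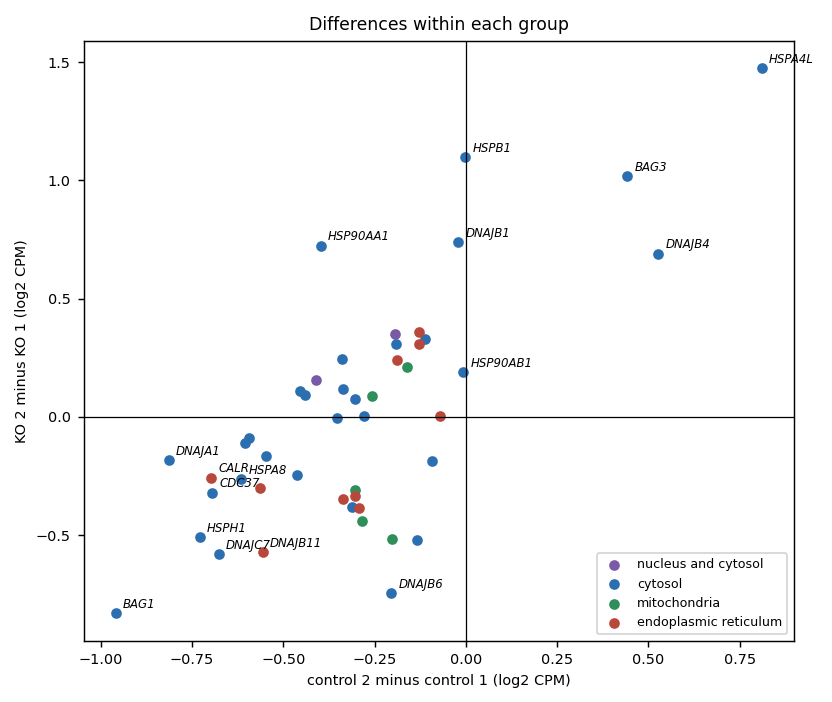
Difference of each gene between the controls (horizontal, control 2 minus control 1, log2 CPM) and between the KO libraries (vertical, KO 2 minus KO 1, log2 CPM), coloured by compartment. HSPA4L, BAG3 and DNAJB4 are positive on both axes, HSPB1 and DNAJB1 are near 0 between the controls and positive between the KO libraries, and 44 of the 47 genes lie left of 0.

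Other genes of the same pathways, from lists written down for this purpose, gave no call either. Of 39 further cytosolic chaperones and co-chaperones 33 were tested. There were 7 higher and 2 lower in both KO libraries (21.2% and 6.06%, against 15.8% and 16.3% of all genes tested). The median log2 fold change of the 33 genes was 0.21, beside 0.03 for all genes tested. The smallest p-values were those of FKBP8, a mitochondrial-surface immunophilin that binds HSP90, with control levels of 311 and 270.0 CPM and KO levels of 347 and 614 CPM, BAG6, which holds membrane proteins before insertion, and DNAJB2. FKBP8 was the 1 gene of this list with an unadjusted p under 0.05 in edgeR (0.0485). Of the 12 prefoldins and helpers of TRiC, 2 were higher and 2 lower (16.7% each, against 15.8% and 16.3% of all genes), with VBP1 (prefoldin 3) at 67.0 and 55.7 CPM against 79.9 and 114 CPM. Among 15 mitochondrial quality control genes 3 were higher and 1 lower (20% and 6.67%), and HTRA2, a protease of the intermembrane space, had 12.7 and 11.8 CPM against 17.4 and 21.6 CPM.

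The list of 30 other ER folding and unfolded protein response genes had 29 tested members, of which 4 had both KO values below both controls and 2 above (13.8% and 6.9%), with a median log2 fold change of -0.09. The 2 genes of the list with an unadjusted p under 0.05 in edgeR, against 4.06% of all genes tested, were both lower and both highest in control 2. DDIT3 (CHOP), a factor induced by prolonged stress, had levels of 8.22 CPM (control 1), 31.8 CPM (control 2), 4.07 CPM (KO 1) and 8.19 CPM (KO 2), so that control 1 and KO 2 were nearly equal. HERPUD1, which helps to clear misfolded ER proteins, reached 17.9 and 52.3 CPM without the knock-out and 17.3 and 13.2 CPM with it. The ER chaperones of the main set did not share the peak in control 2. Like all other members, none of the 10 had its highest value there. HSPA1A and HSPA1B, the near-identical inducible HSP70 genes, and the response factor XBP1 are listed at 0 reads in all 4 libraries, and nothing is said of their RNA here.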

How the data were processed

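Messenger RNA libraries of 2 control and 2 SLC35F2 KO samples were grouped by their titles. The authors deposited raw counts of reads for each gene. The tools listed in the submitters' processing notes are HTSeq 0.11.0, STAR 2.6.0a, FastQC 0.11.7 and cutadapt 1.8.1, and the build is GRCh38. Which annotation release was counted, and with which strand setting, is not given in the sources used here. Genes that overlap, on either strand, may therefore share reads. Reads given to no gene (14.4% to 20.3%) were left out. Symbols and exon lengths came from GENCODE 29, in which 56753 of 60483 identifiers (93.8%) matched.

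Genes passing filterByExpr (minimum count 10) were fitted with edgeR 4.0.16 (TMM factors, robust quasi-likelihood F test, R 4.3.3). Tests were two-sided and p-values were adjusted by Benjamini and Hochberg over all genes. SE is the log2 fold change over the square root of F, and intervals are 95%. The biological coefficient of variation was 36.3%. A chi-square test found no library to be a copy of another (54.6 per degree of freedom between the controls, 124 between the KO libraries). Full values were given for members with an unadjusted p under 0.05 and, in each role, for the most abundant member and the one with the smallest p; others are named as members, and from each further list at most the 3 genes of smallest p. Members and lists were chosen with earlier results of these data known. Alternatives were other scaling factors, DESeq2 1.42.0, limma 3.58.1 with voom or quantile normalisation, edgeR's legacy fit, other filters, the replicate number as a block and each library left out.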

Additional observations from a re-analysis of the deposited data

How the results depend on the processing

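Among the 14 alternatives, those that kept 2 libraries in each group called 0 members. For the fits that left 1 library in a group, calls are not given. With library size only, 9 members were lower in both KO libraries (21.3% of all genes were), and the all-gene median of log2 fold changes moved from 0.029 to -0.097. With quantile normalisation 9 members were lower (13.8% of all genes), and the log2 ratio of summed levels was 0.062 for the cytosol, -0.23 for mitochondria and -0.034 for all members. The replicate block, for which same-numbered libraries correlated in their deviations (Pearson r = 0.366 across 19027 genes, which are not independent replicates) although no label says that a number marks a shared culture, called 76 genes in all and 0 members. With the block the median log2 fold change of the members was 0.097; the counts of higher and lower members and the summed levels do not use the model.

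Leaving out each library in turn gave 3 to 19 lower members, 9 to 30 higher and a median log2 fold change of -0.051 to 0.27. The summed log2 ratio ranged from 0.092 to 0.42 for the cytosol, -0.20 to 0.075 for mitochondria, -0.22 to 0.12 for the ER, -0.024 to 0.37 for TRiC and -0.014 to 0.31 for all members. With 3 libraries the groups separate more readily, and over all genes 27.4% to 37.8% were lower and 27.4% to 38.1% higher. The 30 higher members came without control 1 (30.9% of all genes) and the 19 lower members without control 2 (27.4%).

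Some uncalled log2 fold changes near 0 changed their sign. Upper-quartile factors gave -0.022 for CALR, -0.0094 for HSP90AB1 and -0.065 for HSPD1. Library size only gave -0.054, -0.055 and -0.11 in the same order. Quantile normalisation gave -0.063, -0.16 and -0.17, and -0.047 for HSP90AA1. A mean CPM of at least 1 gave -0.024 for HSPD1. Leaving out libraries moved CALR from -0.26 to 0.45, HSPD1 from -0.11 to 0.16, BAG3 from -0.29 to 0.74, HSP90AA1 from -0.12 to 0.62, HSP90AB1 from -0.021 to 0.18 and HSPB1 from -0.036 to 1.07. The cause of these changes was not tested.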

Other observations

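Chaperone genes outside the main set, named after their values were seen, also separated libraries of the same group. HSPA2, an HSP70 gene best known from the testis, had 19.4 CPM in control 1 and 18.8 CPM in KO 1 but 54.2 CPM in control 2 and 58.6 CPM in KO 2, so its level followed the replicate number and not the genotype (log2 fold change 0.08, 95% confidence interval -1.37 to 1.53). DNAJA4, a class A J-domain partner, had 7.20 CPM in KO 2 against 0.473 CPM in KO 1, a 15.2-fold difference, with 1.33 and 1.83 CPM in the controls. HSPB6, a small heat shock protein gene of muscle, had 24 reads in KO 2 and 0 to 2 reads in the other libraries.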
